A study of Mus musculus with 18 samples.

Results

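Mouse CD8+ T cells that lost Cebpg were compared with CD8+ T cells that lost Atf4, both cultured without drug, across all 14695 genes of the count table. The members of the comparison are 6 of the 18 libraries of the series: 3 of untreated Cebpg knockout cells and 3 of untreated Atf4 knockout cells. The cells are primary T cells from spleen and lymph node, and the targeting was by CRISPR/Cas9. A further 3 untreated libraries targeted at Rosa26, a neutral locus used as the control, give the reference level, and the remaining 9 libraries are the same 3 genotypes cultured with halofuginone for 24 hours. Every cell compared, the Rosa26 control included, had therefore been through CRISPR/Cas9 targeting and culture. The labels name neither the guides nor the strain, age or number of mice. They also do not say whether the libraries of a group come from separate mice or cultures, so p-values measure the spread between these libraries, which may be technical. The first Atf4 knockout library carries the letter R after its number, with no explanation in the labels.

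ATF4 is a basic leucine zipper (bZIP) transcription factor whose protein is made when eIF2alpha is phosphorylated, the common step of the integrated stress response to amino acid shortage, misfolded protein in the endoplasmic reticulum (ER) and other stresses. It raises genes for amino acid synthesis, amino acid uptake and tRNA charging, and binds DNA as a dimer, often with a member of the C/EBP family. CEBPG is a C/EBP protein with no strong activation domain of its own and a known dimer partner of ATF4, and the pair binds composite elements made of a C/EBP site and an ATF site. T cells that have been activated and divide draw heavily on the same pathways for amino acids, nucleotides, lipids and glucose.

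The composite element was searched as TGATGNAA on either strand, with no overlap with another motif considered, in RefSeq promoters of GRCm38.p6 that span 250 bases before to 50 bases after a gene's start. It was present at 24 of 850 matched genes higher in Cebpg knockout cells (2.82%), at 14 of 604 matched genes lower (2.32%) and at 264 of all 9800 matched genes (2.69%). Among all 32851 promoter windows of the reference, 3.97% hold it. In the gene lists described here it was at 7 of 16 matched stress effectors, 3 of 14 matched genes of asparagine, proline, alanine and glutamate metabolism, 5 of 13 matched cytosolic aminoacyl-tRNA synthetases, 1 of 13 matched amino acid transporters and 0 of 17 matched genes of serine and one-carbon metabolism. These lists were drawn from genes known to answer ATF4, so the shares describe the lists and are not independent of that knowledge. Of the 16 genes with a match in these 5 lists, 11 were higher in Cebpg knockout cells, 0 lower and 5 did not pass, with log2 fold changes of Cebpg over Atf4 knockout from -1.54 to 1.12 among those 5. Over all genes 7.05% were higher and 5.23% lower. Matched or not, 6 of 18 stress effectors, 7 of 20 asparagine list genes, 12 of 20 synthetases, 7 of 18 transporters and 10 of 21 serine list genes were higher. Whether a match goes with the difference was not tested. The windows below surround the match in 7 of the 11 and 4 of the 5, in capitals the letters that match TGATGNAA or its reverse complement TTNCATCA, each written 5′ to 3′ along the gene's strand. Only matches wholly before the gene's start were given a window, which leaves out Trib3, Slc1a4, Iars and Yars1. The window of Vldlr, a gene with few counts at -1.54 (adjusted p = 0.356, edgeR), is not printed.
Pycr1: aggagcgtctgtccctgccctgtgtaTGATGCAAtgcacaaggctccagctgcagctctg
Aars1: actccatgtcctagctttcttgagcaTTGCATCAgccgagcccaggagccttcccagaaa
Tars1: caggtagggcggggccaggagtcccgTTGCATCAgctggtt
Gars1: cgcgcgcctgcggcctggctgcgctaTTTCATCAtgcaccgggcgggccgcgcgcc
Asns: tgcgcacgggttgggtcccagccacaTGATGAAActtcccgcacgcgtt
Herpud1: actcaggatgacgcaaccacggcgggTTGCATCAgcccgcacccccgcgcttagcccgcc
Atf3: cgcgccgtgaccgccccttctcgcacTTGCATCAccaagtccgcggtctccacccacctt
Chac1: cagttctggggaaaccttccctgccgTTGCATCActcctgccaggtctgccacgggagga
Nupr1: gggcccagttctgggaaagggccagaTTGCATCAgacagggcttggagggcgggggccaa
Jdp2: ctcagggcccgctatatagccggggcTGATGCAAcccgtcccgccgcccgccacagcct
Got1: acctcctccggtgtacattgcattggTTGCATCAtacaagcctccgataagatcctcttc
On GRCm38.p6 these windows are chr11:120643818-120643877 (minus strand) for Pycr1, chr8:111033704-111033763 (plus) for Aars1, chr15:11399659-11399699 (minus) for Tars1, chr6:55037945-55038000 (plus) for Gars1, chr6:7693210-7693258 (minus) for Asns, chr8:94386291-94386350 (plus) for Herpud1, chr1:191183410-191183469 (minus) for Atf3, chr2:119351023-119351082 (plus) for Chac1, chr7:126625547-126625606 (minus) for Nupr1, chr12:85599357-85599415 (plus) for Jdp2 and chr19:43524674-43524733 (minus) for Got1. The first 7 of these genes were higher in Cebpg knockout cells, with values given below. The other 4 did not pass: Chac1, a glutathione-degrading enzyme, at 0.03 (adjusted p = 0.977), Nupr1, a small stress-induced chromatin protein, at 1.12 (0.118), Jdp2, a bZIP repressor, at 0.32 (0.131) and Got1, the cytosolic aspartate aminotransferase, at 0.16 (0.0595, edgeR with Benjamini-Hochberg adjustment). CPM is the count of a gene per 1 M counts of its library after scaling for composition, and levels are given as mean ± SD (n = 3 libraries). A match in this window is a description and not a binding site.

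The 6 libraries held 14.9 to 17.0 M counts (Atf4 knockout) and 15.1 to 17.9 M counts (Cebpg knockout), against 17.5 to 18.8 M for Rosa26. All 11 markers of CD8 T cells were measured, and their summed level was 4970.5 to 5273 CPM in Atf4 knockout and 4938 to 5105 CPM in Cebpg knockout libraries. Of the markers of other cells, 3 of 7 for CD4 T cells (25.0 to 26.03 CPM in Atf4 knockout, 19.1 to 24.9 CPM in Cebpg knockout libraries), 4 of 11 for B cells (9.21 to 11.7 and 12.4 to 14.4 CPM), 4 of 14 for myeloid cells (43.5 to 49.2 and 43.8 to 47.0 CPM), 5 of 10 for NK and gamma delta T cells (147.6 to 153.1 and 149.4 to 153.2 CPM) and 3 of 10 for erythroid cells and platelets (3.94 to 7.95 and 3.23 to 5.33 CPM) were measured. The defining markers Cd4, Ms4a1 and Lyz2 were not analysed here. The mRNA level of the targeted genes gave no check of the genotypes. Atf4 mRNA was at 286, 273 and 277 CPM in Cebpg knockout and 301, 281 and 274 CPM in Atf4 knockout libraries, with 281, 267 and 256 CPM in Rosa26 libraries. Cebpg mRNA was at 56.7, 58.5 and 53.9 CPM in Cebpg knockout and 59.8, 58.0 and 58.8 CPM in Atf4 knockout libraries, with 52.8, 55.1 and 53.03 CPM in Rosa26 libraries. Neither passed the threshold between the knockouts (adjusted p = 0.519 and 0.483, edgeR with Benjamini-Hochberg adjustment).

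Between the knockouts, 1804 of 14695 genes (12.3%) differed at an adjusted p under 0.05, 1036 of them higher in Cebpg knockout cells (7.05% of all genes) and 768 lower (5.23%). The differences were small. Over the 1804 genes the median absolute log2 fold change was 0.25, 129 genes differed by at least 1.5-fold (39 higher, 90 lower) and 39 by at least 2-fold (11 higher, 28 lower). Fold changes are log2, Cebpg knockout over Atf4 knockout, so a positive value is a higher level in Cebpg knockout cells, and ± beside one is the standard error of the fit. "Higher" and "lower" are used of genes whose adjusted p, from edgeR's quasi-likelihood test with Benjamini-Hochberg adjustment over all genes, is under 0.05. In bulk RNA, fewer cells of a type and less RNA per cell cannot be told apart. When all 18 libraries of the series shared 1 estimate of the spread, 488 genes passed (295 higher, 193 lower), all of them among the 1804. The halofuginone libraries agreed less closely with each other than the untreated ones, with a chi-square per degree of freedom between libraries of a group of 6.28 to 41.5 against 2.01 to 6.65.

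**Figure D1:**
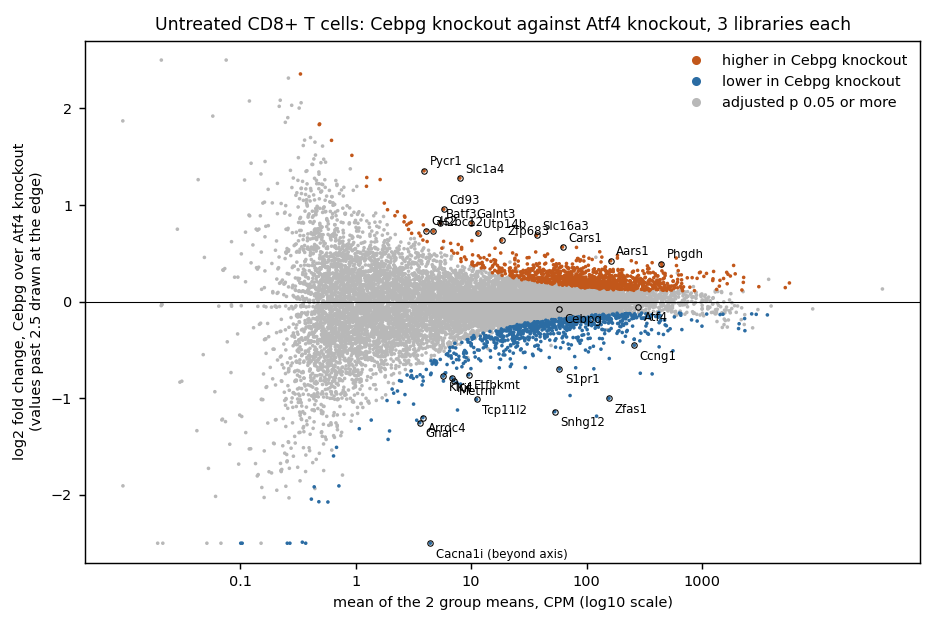
Each point is 1 of 14695 genes, with the mean of the Cebpg and Atf4 knockout group means in CPM on a log10 x axis and the log2 fold change of Cebpg over Atf4 knockout on the y axis; orange and blue mark genes with adjusted p under 0.05. Most of the 1804 genes past the threshold lie within 1 log2 unit of 0, with Pycr1 and Slc1a4 high and Cacna1i far below.

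The 10 genes highest in Cebpg knockout over Atf4 knockout cells were chosen by level and separation. Each was called, reached 5 CPM in a knockout group, and had no overlap of libraries and no predicted name. A proline synthesis enzyme and a neutral amino acid transporter led them. Genes that this choice left out can have higher fold changes. Of the 10, only Pycr1 and Slc1a4 were among the 11 genes called at least 2-fold higher. Cd79a, described later and below 5 CPM, was at 2.36, and the highest value over all genes, called or not, was 4.31. Pycr1, which makes proline from pyrroline-5-carboxylate, counted 6.46, 5.18 and 5.33 CPM in the Cebpg knockout libraries and 1.85, 3.00 and 1.66 CPM in the Atf4 knockout libraries. Slc1a4, a transporter of alanine, serine and cysteine, counted 11.4, 11.6 and 11.1 CPM and 4.99, 5.37 and 3.44 CPM. As the choice of these genes required, neither gene's libraries overlapped between the knockouts. The log2 fold changes were 1.35 ± 0.22 (adjusted p = 1.96e-05) and 1.28 ± 0.15 (adjusted p = 7.09e-08, edgeR). In the Rosa26 control Pycr1 stood at 4.93 ± 0.830 CPM and Slc1a4 at 7.61 ± 0.638 CPM, so Slc1a4 was above the control in Cebpg knockout cells (0.58, adjusted p = 0.00163) and below it in Atf4 knockout cells (-0.70, adjusted p = 0.000408). The others among the 10 highest were Cd93, a surface glycoprotein, at 0.96, Galnt3, which starts O-linked glycans, at 0.81, Batf3, a bZIP factor of T cells and dendritic cells, at 0.81, and Gls2, a glutaminase, at 0.73. The group also holds Slc16a3, the lactate exporter MCT4, at 0.69, Zfp683, which encodes the tissue-residency factor Hobit, at 0.64, Utp14b, a retrocopy of Utp14a, at 0.71, and the histone gene H2bc12 at 0.73. Reads of Utp14b and H2bc12 may be shared with near-identical copies, which makes their values uncertain. The call on Gls2 was lost without Atf4 knockout library 1 or 2 (0.65 and 0.66), and that on H2bc12 without Atf4 knockout library 1 or 3 or Cebpg knockout library 3 (0.61, 0.60 and 0.56).

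**Figure D2:**
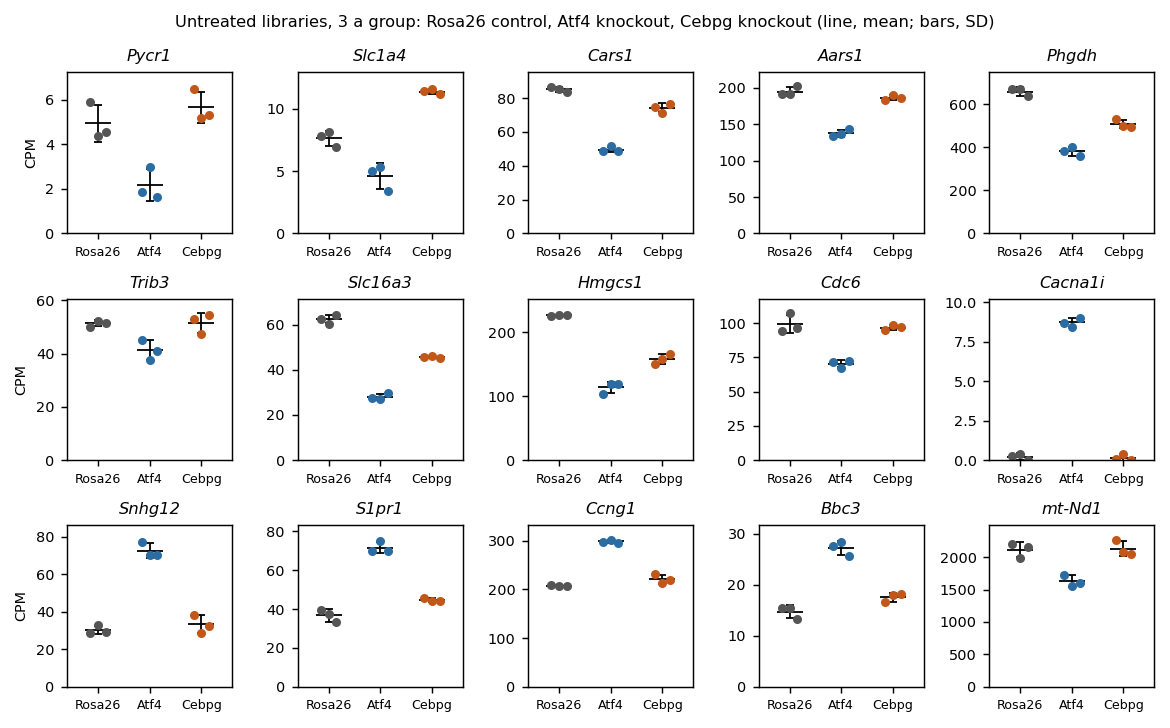
Levels in CPM (y axes from 0) of 15 genes in each untreated library, 3 a group, for Rosa26 control, Atf4 knockout and Cebpg knockout cells, with a line at the mean and bars for the SD. The Atf4 and Cebpg knockout libraries do not overlap in any panel, which the choice of genes required for Pycr1, Slc1a4, Slc16a3, Cacna1i and Snhg12. Cacna1i is near 0 in all libraries but those of Atf4 knockout cells.

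All 20 cytosolic aminoacyl-tRNA synthetases had a positive fold change, 12 of them were higher in Cebpg knockout cells and 0 lower, with a list median of 0.18 against -0.01 over all genes tested. Cars1, the cysteinyl-tRNA synthetase, counted 74.7, 71.3 and 76.8 CPM in Cebpg knockout and 48.6, 51.5 and 48.6 CPM in Atf4 knockout libraries (0.57 ± 0.056, adjusted p = 1.86e-09, edgeR). Aars1, the alanyl-tRNA synthetase, counted 182, 189.6 and 186 and 134, 136 and 143 CPM (0.42 ± 0.043, adjusted p = 2.16e-09, edgeR). Both genes were separated by more than the spread of their libraries. Iars, the isoleucyl-tRNA synthetase, was 0.45 ± 0.045 higher. Among further members, named after their values were seen, Yars1 was at 0.47, Nars1 at 0.33, Tars1 at 0.33 and Gars1 at 0.30. Of the mitochondrial aminoacyl-tRNA synthetases, 0 of 17 were higher and 1, Nars2, was lower (-0.32 ± 0.088), with a list median of -0.10. Over all genes 7.05% were higher and 5.23% lower, so the 1 lower mitochondrial synthetase is near the share of all genes. With all 18 libraries in 1 fit, 8 of the 20 cytosolic synthetases were higher. The difference between these lists was not tested, and the call on Nars2 was lost without Atf4 knockout library 2 (-0.26) or Cebpg knockout library 2 (-0.28).

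Serine and one-carbon metabolism supplies serine, glycine and folate-bound carbon for nucleotides. Of its 21 measured genes, 10 were higher and 2 lower in Cebpg knockout cells, with a median of 0.20. Phgdh, the first enzyme of serine synthesis, counted 530.5, 498 and 494 CPM in Cebpg knockout and 383, 402 and 361 CPM in Atf4 knockout libraries, and 670.3, 669 and 635 CPM in Rosa26 libraries. The 3 genotypes thus lay in separate ranges, with Cebpg knockout between Atf4 knockout and control (0.39 ± 0.042 between the knockouts, adjusted p = 7.03e-09, edgeR). Shmt2, the mitochondrial serine hydroxymethyltransferase, was at 0.35 ± 0.039 and Mthfd1l, the mitochondrial formate-producing synthetase, at 0.27 ± 0.042. Among further members, named after their values were seen, Psat1 of serine synthesis was at 0.21 and Mthfd2 at 0.17, while the lower genes were Sfxn3, a mitochondrial serine carrier, at -0.33 and Mthfd2l, a mitochondrial folate enzyme, at -0.60. In the fit of 18 libraries, 6 genes of the list were higher and 1 lower.

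Of 20 measured genes of asparagine, proline, alanine and glutamate metabolism, 7 were higher and 0 lower, with a median of 0.13. Beside Pycr1 and Gls2 they include Got2, the mitochondrial aspartate aminotransferase, at 0.25 ± 0.038, and Bcat1, the cytosolic branched-chain aminotransferase, at 0.38 ± 0.063. Asns, the asparagine synthetase and a classical ATF4 target, was named after its value was seen: it counted 25.8 ± 0.757 CPM in Cebpg knockout, 21.3 ± 1.68 CPM in Atf4 knockout and 43.0 ± 2.11 CPM in Rosa26 cells, so both knockouts were below the control and differed from each other by 0.26 ± 0.081 (adjusted p = 0.0295, edgeR). The count of 7 fell to 4 without Atf4 knockout library 1 and to 2 with all 18 libraries in 1 fit. Of 18 measured amino acid transporters, 7 were higher and 1 lower, with a median of 0.12. Slc7a5, the large neutral amino acid transporter LAT1, counted 349, 410.0 and 385 CPM in Cebpg knockout and 284, 295 and 298 CPM in Atf4 knockout libraries (0.37 ± 0.045, adjusted p = 4.48e-07, edgeR), with no overlap. Slc1a5, the glutamine transporter ASCT2, was at 0.21 ± 0.039. The lower transporter was Slc38a9, a lysosomal arginine sensor, at -0.30, named after its value was seen and lost without Atf4 knockout library 2 or 3 or Cebpg knockout library 1 or 3.

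Effectors of the stress response itself were mixed. Of 18 measured, 6 were higher, 1 was lower and 11 did not pass, with a median of 0.07. Trib3, a pseudokinase induced by ATF4, counted 52.8, 47.1 and 54.4 CPM in Cebpg knockout, 45.2, 37.7 and 41.0 CPM in Atf4 knockout and 50.02, 52.3 and 51.6 CPM in Rosa26 libraries. Cebpg knockout libraries were on both sides of the Rosa26 range and all above the Atf4 knockout libraries (0.30 ± 0.069, adjusted p = 0.00199, edgeR). Herpud1, a component of ER-associated degradation, was at 0.25 ± 0.057, and Atf3, a bZIP factor of the stress response named after its value was seen, at 1.19 ± 0.40 from levels of only 1.73 ± 0.857 and 0.747 ± 0.309 CPM that overlapped between the groups. The lower gene was Bbc3, which encodes the cell death protein PUMA, with 16.5, 18.1 and 18.1 CPM in Cebpg knockout and 27.6, 28.3 and 25.6 CPM in Atf4 knockout libraries (-0.65 ± 0.091, adjusted p = 1.60e-06, edgeR). Ddit3, which encodes CHOP, did not pass at 7.53 ± 1.55 against 11.2 ± 2.32 CPM (-0.58 ± 0.22, adjusted p = 0.122, edgeR). The 6 higher genes became 3 without Cebpg knockout library 2 and 1 with all 18 libraries in 1 fit, where Trib3 and Herpud1 did not pass.

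The eIF2alpha list held 16 genes: kinases, phosphatase subunits, exchange factor subunits, eIF2alpha itself and upstream regulators. Of these, 2 were higher and 1 lower, where 7.05% of all genes were higher and 5.23% lower. Eif2ak3, which encodes the ER stress kinase PERK, counted 45.0, 46.0 and 47.7 CPM in Cebpg knockout and 60.5, 61.7 and 59.0 CPM in Atf4 knockout libraries (-0.40 ± 0.061, adjusted p = 6.82e-06, edgeR). Ppp1r15b, the constitutive phosphatase subunit for eIF2alpha, was higher at 0.25 ± 0.041. Eif2b1, a subunit of the eIF2 exchange factor, was at 0.22 ± 0.062, a call lost without Atf4 knockout library 2 or 3 or Cebpg knockout library 2. Of 36 bZIP factors other than the targets, 6 were higher and 6 lower. Beside Batf3 they include Mafg, a small Maf partner of NRF2, at 0.33 ± 0.063, Bach2, a repressor that holds T cells in a quiescent state, at -0.37 ± 0.064, and Crem, a cAMP-response factor, at -0.42 ± 0.092. Among the others, named after their values were seen, Xbp1, of the unfolded protein response, was at 0.18, Cebpb, another C/EBP factor, at 0.31 and Nfil3 at 0.43, while Jun, of AP-1, was at -0.19 and Dbp, of the circadian clock, at -0.45. The 6 lower bZIP genes were 2 without Cebpg knockout library 1. Of 19 genes of glutathione, transsulfuration and thioredoxin, 7 were higher and 0 lower, among them Txnrd1, the cytosolic thioredoxin reductase, at 0.30 ± 0.039, Gsr, the glutathione reductase, at 0.29 ± 0.048, and Txn1, thioredoxin, at 0.30 ± 0.048. Of these 7, the fit of 18 libraries called 2.

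**Figure D3:**
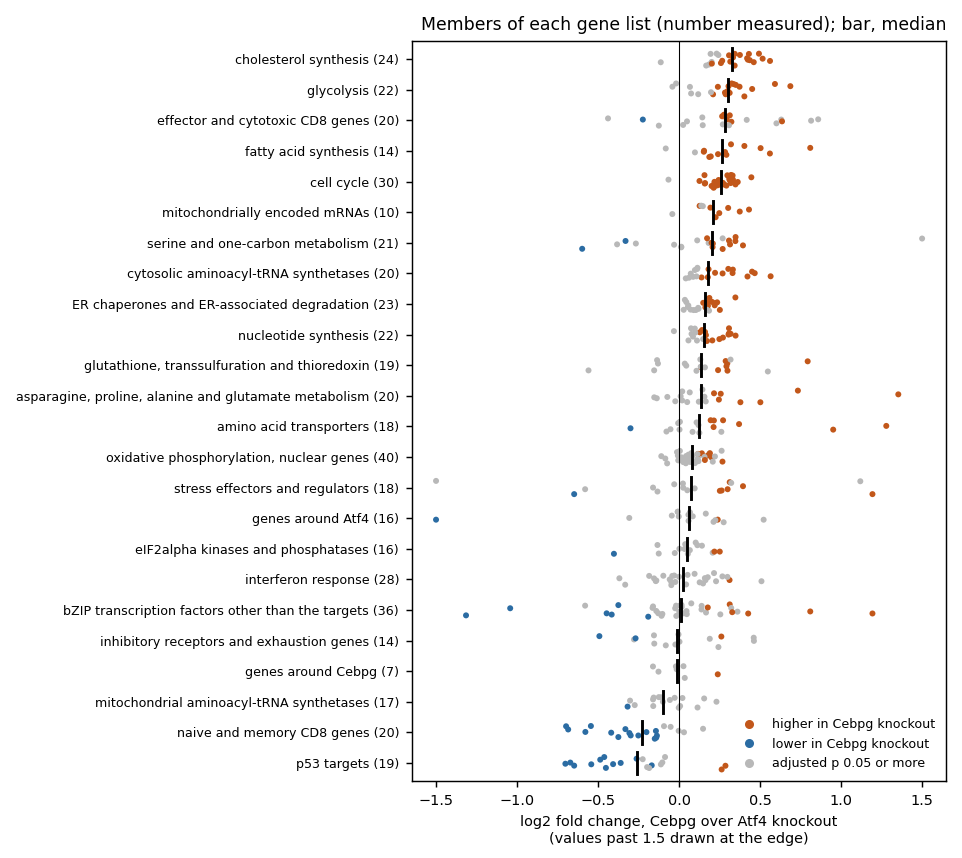
Log2 fold change of Cebpg over Atf4 knockout (x axis) for every measured member of the 24 gene lists, with a bar at each list's median; orange and blue mark members with adjusted p under 0.05. Medians run from -0.26 for p53 targets to 0.32 for cholesterol synthesis, and the aminoacyl-tRNA synthetases of the cytosol are all to the right of 0.

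Cholesterol synthesis and glycolysis had the highest medians of the 24 lists. In cholesterol synthesis 17 of 24 genes were higher and 0 lower, with a median of 0.32. Hmgcs1, the enzyme before HMG-CoA reductase, counted 149, 159 and 166 CPM in Cebpg knockout and 103, 119 and 119 CPM in Atf4 knockout libraries, and 225, 227 and 226 CPM in Rosa26 libraries. The 3 groups did not overlap, and the difference between the knockouts was 0.46 ± 0.049 (adjusted p = 1.06e-08, edgeR). In fatty acid synthesis 12 of 14 genes were higher and 0 lower, with a median of 0.26. By p they were led by Scd2, a desaturase, with 283, 321 and 321 CPM in Cebpg knockout and 227, 232 and 233 CPM in Atf4 knockout libraries (0.40 ± 0.042, adjusted p = 5.13e-09, edgeR), followed by Fasn, the fatty acid synthase, at 0.32 ± 0.041 and Acaca, acetyl-CoA carboxylase, at 0.29 ± 0.046. The fit of 18 libraries called 14 cholesterol and 6 fatty acid genes higher.

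In glycolysis 16 of 22 genes were higher and 0 lower, with a median of 0.30. Slc16a3, the lactate exporter of the 10 highest genes, counted 45.9, 46.2 and 45.1 CPM in Cebpg knockout, 27.6, 27.2 and 29.6 CPM in Atf4 knockout and 62.6, 60.4 and 64.3 CPM in Rosa26 libraries. The 3 groups were apart from each other, with Cebpg knockout in the middle (0.69 ± 0.067, adjusted p = 9.66e-10, edgeR). Tpi1, triosephosphate isomerase, was at 0.40 ± 0.039, and Aldoa, aldolase A, at 0.45 ± 0.040 for the identifier ENSMUSG00000030695, since another row of the table has the same name. In nucleotide synthesis 13 of 22 genes were higher and 0 lower, with a median of 0.15. Rrm1 and Rrm2, the subunits of ribonucleotide reductase, were at 0.32 ± 0.040 and 0.31 ± 0.040, and Tk1, thymidine kinase, at 0.31 ± 0.047. The fit of 18 libraries left 9 glycolysis and 6 nucleotide genes higher.

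Of 40 nuclear genes of oxidative phosphorylation, 7 were higher and 0 lower with a median of 0.08, led by p by Cox6b1, a cytochrome oxidase subunit, at 0.27 ± 0.058, Sdhd, a subunit of succinate dehydrogenase, at 0.19 ± 0.046 and Cycs, cytochrome c, at 0.18 ± 0.046. That count moved to 15 without Atf4 knockout library 1, to 3 without Atf4 knockout library 2, to 4 without Atf4 knockout library 3 or Cebpg knockout library 1 and to 0 with all 18 libraries in 1 fit. Of 10 measured mRNAs encoded in the mitochondrial genome, 7 were higher and 0 lower with a median of 0.21. Of these mRNAs, mt-Co2, mt-Co3 and mt-Atp6 had only 7 to 37 counts in each of the 6 libraries, against 79330 to 114078 for mt-Co1. Their values, and with them the median, are uncertain. mt-Nd1, a subunit of complex I, counted 2272, 2087 and 2042 CPM in Cebpg knockout and 1728, 1556 and 1600.0 CPM in Atf4 knockout libraries (0.37 ± 0.046, adjusted p = 4.48e-07, edgeR). mt-Nd2, of the same complex, was at 0.25 ± 0.038 and mt-Cytb, cytochrome b, at 0.30 ± 0.047. The share of all counts on mitochondrial transcripts was 1.41 to 1.52% in Cebpg knockout, 1.23 to 1.29% in Atf4 knockout and 1.24 to 1.37% in Rosa26 libraries, and its part in these values was not tested. None of the 10 (0) passed in the fit of 18 libraries.

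Of 23 ER chaperones and genes of ER-associated degradation, all had a positive fold change, 11 were higher and 0 lower, and the median was 0.16. Calr, the chaperone calreticulin, counted 498, 494 and 508 CPM in Cebpg knockout, 418, 420.2 and 423 CPM in Atf4 knockout and 500.4, 499.9 and 511 CPM in Rosa26 libraries. Its Atf4 knockout libraries were the low ones (0.24 ± 0.037 between the knockouts, adjusted p = 1.30e-05, edgeR). Pdia3, a disulfide isomerase, was at 0.22 ± 0.038 and Hsp90b1, the ER form of HSP90, at 0.22 ± 0.039. A single gene of the list (1) was higher in the fit of 18 libraries.

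Cell cycle genes were higher in Cebpg knockout cells almost throughout the list: 29 of 30 passed, 0 were lower, and Ccnd2, a cyclin of G1, was the gene that did not pass (-0.07). The median was 0.26. Cdc6, which loads the replicative helicase, counted 95.1, 98.4 and 97.1 CPM in Cebpg knockout, 71.4, 67.4 and 72.3 CPM in Atf4 knockout and 94.6, 107 and 96.5 CPM in Rosa26 libraries. The Cebpg knockout and Rosa26 libraries overlapped and the Atf4 knockout libraries were below both (0.45 ± 0.054 between the knockouts, adjusted p = 1.23e-07, edgeR). Bub1b, of the spindle checkpoint, was at 0.33 ± 0.040 and Ccna2, cyclin A2, at 0.32 ± 0.040. Over Rosa26, Bub1b was at -0.33 in Cebpg knockout and -0.67 in Atf4 knockout cells, both past the threshold. Of the 30, 19 were higher in the fit of 18 libraries.

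Targets of the tumour suppressor p53 went the other way, with 11 of 19 lower in Cebpg knockout cells, 2 higher and a median of -0.26. Ccng1, cyclin G1, counted 231, 213 and 218 CPM in Cebpg knockout, 298, 302 and 295 CPM in Atf4 knockout and 209, 207 and 206 CPM in Rosa26 libraries (-0.45 ± 0.040, adjusted p = 1.12e-10, edgeR). The Atf4 knockout libraries were the high ones. Trp53inp1, a stress protein that binds p53, was at -0.46 ± 0.050 and Zmat3, an RNA-binding p53 target, at -0.49 ± 0.061. Among further members, named after their values were seen, Cdkn1a, the p21 cell cycle inhibitor, was at -0.36 and Bax, of the mitochondrial death pathway, at -0.41, while Mdm2, which degrades p53, did not pass (-0.09). The 2 higher members were Gtse1, a gene of G2 and mitosis, at 0.29 and Sesn2, which is also a stress effector here, at 0.26. In the fit of 18 libraries 8 were lower.

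Genes of naive and memory CD8 T cells were lower in Cebpg knockout than in Atf4 knockout cells, with 15 of 20 lower, 0 higher and a median of -0.23. S1pr1, the receptor that lets T cells leave lymph nodes, counted 45.8, 44.3 and 43.9 CPM in Cebpg knockout, 69.9, 74.9 and 70.1 CPM in Atf4 knockout and 39.3, 37.5 and 33.2 CPM in Rosa26 libraries. Cebpg knockout lay between the others with no overlap (-0.70 ± 0.064, adjusted p = 2.44e-10, edgeR). Ccr7, the chemokine receptor for lymph node entry, was at -0.42 ± 0.043 and Klf3, a repressor of the Krüppel-like family, at -0.58 ± 0.069. Among further members, named after their values were seen, Klf2 was at -0.68 and Il7r, the interleukin-7 receptor, at -0.54. Of the 20, 9 were lower in the fit of 18 libraries.

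Effector genes were less uniform, with 6 of 20 higher and 1 lower, where 7.05% of all genes were higher and 5.23% lower. Their median was 0.29. It rests in part on genes with few counts: Ifng, Ccl3, Ccl4 and Gzmc had 0 to 19 counts in each of the 6 libraries. Beside Zfp683 (21.6, 22.2 and 23.7 against 14.4, 14.4 and 14.1 CPM), Il2ra, the alpha chain of the interleukin-2 receptor, was higher at 0.28 ± 0.043, and Nkg7, of cytotoxic granules, was lower at -0.22 ± 0.042. Gzmb, granzyme B, was named after its value was seen: it stood at 1124 ± 8.94 and 1092 ± 14.9 CPM and did not pass (0.03 ± 0.037, adjusted p = 0.758, edgeR). With all 18 libraries in 1 fit, 3 effector genes were higher and 0 lower. Of 14 inhibitory receptors and exhaustion genes, 1 was higher, near the share of all genes, and 2 were lower. Ctla4, which restrains costimulation, counted 121, 99.0 and 115 CPM in Cebpg knockout and 157, 149.8 and 159 CPM in Atf4 knockout libraries, with no overlap (-0.49 ± 0.053, adjusted p = 2.74e-08, edgeR). Btla, a receptor for HVEM, was lower at -0.27 ± 0.057, and Cd160, another, was higher at 0.26 ± 0.087, a call that was lost without Atf4 knockout library 2 or 3 or Cebpg knockout library 1 or 3. Among 28 interferon response genes, 1 of 28 passed, below the 12.3% of all genes that differed. It was Isg20, an exonuclease, at 0.31 ± 0.10. That call was lost without Atf4 knockout library 1 or 2 or without any 1 Cebpg knockout library, while 3 genes passed without Atf4 knockout library 3. Bst2 (0.13, adjusted p = 0.191) and Irf9 (-0.14, adjusted p = 0.231, edgeR), the next by p, did not pass.

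Among the markers of other cells, Foxp3, the factor of regulatory T cells, was lower (-0.58 ± 0.14, 7.31 ± 1.34 against 10.8 ± 0.912 CPM), Zbtb7b, a CD4 lineage factor, was higher (0.82 ± 0.23, 3.87 ± 0.0751 against 2.17 ± 0.376 CPM) and Cd79a, of the B cell receptor, was higher (2.36 ± 0.78) from levels of 0.563 ± 0.255 and 0.101 ± 0.129 CPM. These were named after their values were seen. The call on Foxp3 was lost without Cebpg knockout library 1, that on Zbtb7b without Atf4 knockout library 1 or 2, and that on Cd79a without Atf4 knockout library 2 or 3 or Cebpg knockout library 1 or 3. Of the CD8 markers, Cd5 was higher (0.14) and Cd8a and Cd3d lower (-0.13 and -0.14), counts that ran from 0 to 2 without single libraries. The part of other cells in the results was not tested.

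The lowest fold change of all belonged to Cacna1i, a T-type calcium channel gene. It counted 8.69, 8.43 and 9.01 CPM in the Atf4 knockout libraries, 0.0566, 0.403 and 0 CPM in the Cebpg knockout libraries and 0.240, 0.419 and 0 CPM in the Rosa26 libraries. The summed counts were 423 in Atf4 knockout, 8 in Cebpg knockout and 11 in Rosa26 cells, a 56.8-fold difference between the knockouts in mean CPM (-5.71 ± 0.44, adjusted p = 9.49e-10, edgeR). With halofuginone the counts were 0 in Cebpg knockout and 0 in Rosa26 libraries against a mean of 15.6 CPM in Atf4 knockout libraries, at least 81.2-fold higher when 3 counts per library are taken as the floor. In the RefSeq gene order Cacna1i is the second gene after Atf4, with Rps19bp1 between them. Rps19bp1, a ribosomal protein S19 binding protein, did not pass (0.21 ± 0.092, adjusted p = 0.136), and neither did Mief1, a mitochondrial fission factor on the other side of Atf4 (0.16 ± 0.065, adjusted p = 0.0932, edgeR). Of 16 measured genes around Atf4, only Cacna1i and Cbx6, a Polycomb protein (0.24 ± 0.048), differed between the knockouts, with Mief1 added without Atf4 knockout library 2 (0.23). That share is near the 12.3% of all genes that differed. The 14 that did not pass ran from -0.31 for Pdgfb, a growth factor gene, to 0.52 for Mgat3, a glycosyltransferase gene, both at low levels. Of 7 measured genes of the list around Cebpg, 1 differed, also near the share of all genes: Cep89, a centriole protein, at 0.24 ± 0.072, a call lost without Atf4 knockout library 1 or 2 or Cebpg knockout library 2 or 3. The next by p there, Pepd, a dipeptidase, and Faap24, of the Fanconi pathway, were at -0.16 and -0.13 and did not pass. In the RefSeq order Gpi1, a glycolytic enzyme gene that is the sixth gene from Cebpg on 1 side, was higher (0.21 ± 0.037, adjusted p = 8.77e-05, edgeR).

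Host genes of small nucleolar RNAs, which carry these RNAs in their introns, were among the other low genes. Snhg12 counted 38.5, 28.9 and 32.7 CPM in Cebpg knockout, 77.4, 70.5 and 70.2 CPM in Atf4 knockout and 28.8, 32.7 and 29.5 CPM in Rosa26 libraries (-1.14 ± 0.078, adjusted p = 1.30e-11, edgeR), so Atf4 knockout libraries were high and the other groups overlapped. Zfas1, another host gene, counted 115, 102 and 98.9 CPM in Cebpg knockout, 240.4, 194 and 189 CPM in Atf4 knockout and 94.7, 106 and 99.8 CPM in Rosa26 libraries (-0.9995 ± 0.11, adjusted p = 0.000658, edgeR), the same order. Zfas1 is transcribed against its neighbour, and the strand setting of the counting is not given, so its value is uncertain. Over the family of 16 host genes, chosen after their values were seen, 7 were lower and 0 higher, with a median of -0.31. Among them were Gas5 at -0.75, Snhg5 at -0.57 and Snhg1 at -0.50.

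The others of the 10 lowest were Gnal, a G protein alpha subunit, at -1.25 ± 0.26, Arrdc4, an arrestin of the same family as the glucose-sensing Txnip, at -1.20 ± 0.24, Tcp11l2 at -1.01 ± 0.14, and Metrnl, a secreted protein, at -0.82 ± 0.16. Kit, the stem cell factor receptor, was at -0.79 ± 0.17, Klc4, a kinesin light chain, at -0.77 ± 0.18 and Etfbkmt, a lysine methyltransferase of the electron transfer flavoprotein, at -0.76 ± 0.13. Tcp11l2 counted 6.91, 7.196 and 8.30 CPM in Cebpg knockout and 12.8, 16.9 and 14.8 CPM in Atf4 knockout libraries, and Kit 4.81, 5.41 and 4.86 and 6.78, 9.64 and 9.41 CPM. In both, every Atf4 knockout library was above every Cebpg knockout library, as the choice of the 10 lowest genes required. Txnip itself, named after its value was seen, stood at 220.4 ± 5.75 CPM in Cebpg knockout, 364 ± 16.0 CPM in Atf4 knockout and 186 ± 13.9 CPM in Rosa26 cells (-0.74 ± 0.045 between the knockouts, adjusted p = 2.65e-14, edgeR).

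Where each knockout stood against Rosa26 was read side by side, since both comparisons use the same 3 Rosa26 libraries. These libraries also differed in composition from both knockouts. Malat1 was at 858 to 1168 CPM in Rosa26, 2026 to 2606 CPM in Atf4 knockout and 2048 to 2364 CPM in Cebpg knockout libraries. Unconfirmed transcripts (class TEC) held 0.10 to 0.13%, 0.19 to 0.25% and 0.20 to 0.21% of counts. The part of this in the values over Rosa26 was not tested. For cholesterol synthesis the list median over Rosa26 was -0.64 in Atf4 knockout cells and -0.34 in Cebpg knockout cells. Cell cycle genes had medians of -0.52 and -0.26, glycolysis -0.57 and -0.26, serine and one-carbon metabolism -0.46 and -0.18, and the cytosolic synthetases -0.36 and -0.17, in the same order of genotypes. In these lists the Cebpg knockout median lay between the control and the Atf4 knockout median. For ER chaperones the medians were -0.22 and -0.06, for p53 targets 0.46 and 0.09, and for the mitochondrially encoded mRNAs -0.24 and 0.04, each nearer to 0 in Cebpg knockout cells. Other lists had a Cebpg knockout median farther from 0: amino acid transporters at -0.06 in Atf4 knockout and 0.12 in Cebpg knockout cells, inhibitory receptors at 0.03 and 0.12, bZIP factors at 0.02 and -0.04, and the cytosolic ribosomal proteins, a family chosen after its values were seen, at -0.02 and -0.10. Over all genes the medians were 0.03 and 0.01.

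**Figure D4:**
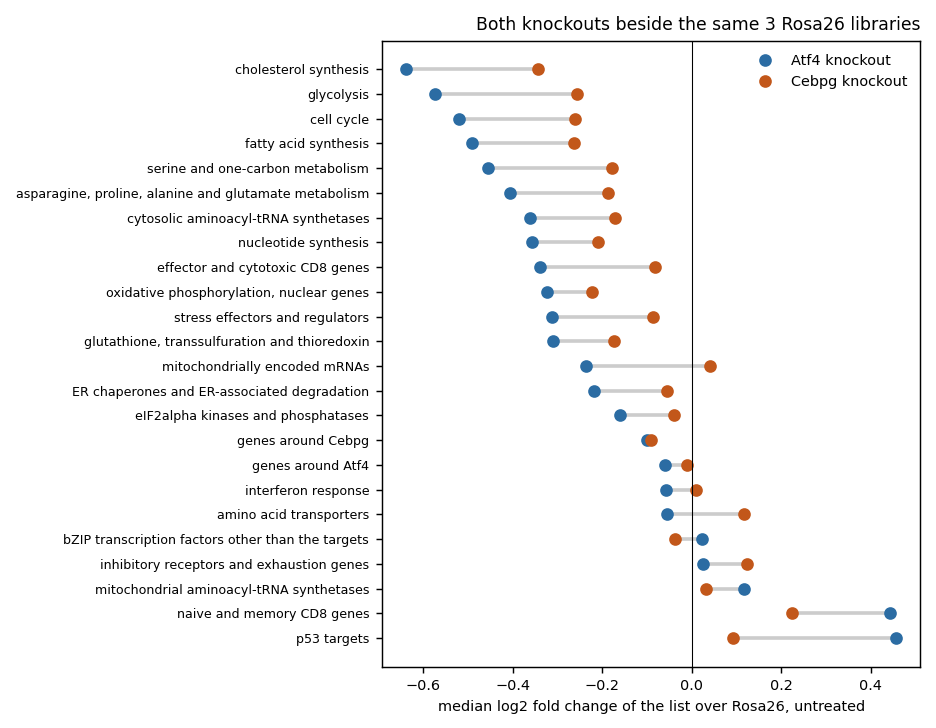
Median log2 fold change over the 3 untreated Rosa26 libraries (x axis) for each of 24 gene lists, in blue for Atf4 knockout and in orange for Cebpg knockout cells. Both medians are below 0 for cholesterol synthesis, glycolysis and cell cycle, with the Atf4 knockout median farther from 0, and both are above 0 for naive and memory genes and p53 targets.

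The same pair of knockouts was also cultured with halofuginone, an inhibitor of prolyl-tRNA synthetase that mimics amino acid shortage. No library is shared with the untreated comparison, but the labels do not say whether the halofuginone cultures came from the same edited cells. Of the 9 halofuginone libraries, 3 stood apart from their own groups along the first component of the variation within groups: Atf4 knockout 3 at -55.1, Cebpg knockout 3 at -25.6 and Rosa26 library 2 at -59.0, when all other libraries of the series lay between -8.73 and 36.9. Each also had the lowest class TEC share of its group, at 0.0735%, 0.151% and 0.0542%, and the part of this was not tested. The halofuginone comparison called 2 genes of 14695 (0.0136%), Cars1 higher at 0.61 and Cacna1i lower (0.00681% each), and 1309 at an unadjusted p under 0.05. DESeq2 called 137. With the replicate number as a block, edgeR called 0, and 1047 at an unadjusted p under 0.05. The number pairs the halofuginone libraries only in part, since number 1 correlated better with another number (0.36 against 0.25). Without the 3 libraries that stood apart it called 512 (3.48%), 283 higher (1.93%) and 229 lower (1.56%). Leaving out libraries because they lie far from their groups lowers the spread by construction, so this count is a description. Calls were also lost by leaving out single libraries, with 0 called without Atf4 knockout library 1 and without any 1 Cebpg knockout library, and 1 without Atf4 knockout library 2.

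Direction was largely kept. Of the 1804 genes that differed untreated, 1496 (82.9%) had the same sign with halofuginone, against 56.1% of the 12891 genes that did not differ. Without the 3 libraries that stood apart the counts were 1500 (83.1%) and 56.8%, and 300 of the 512 genes called there were among the 1804, which is 58.6% of the 512 and 16.6% of the 1804. The sizes were smaller: genes higher untreated had a median of 0.23 untreated and 0.13 with halofuginone, and genes lower untreated had medians of -0.29 and -0.12. The genes were chosen by the untreated test, so the untreated medians are a description. Pycr1 was at 0.97 with halofuginone, Slc1a4 at 0.54, Aars1 at 0.28, Phgdh at 0.31, Ccng1 at -0.53 and S1pr1 at -0.44, all with the untreated sign and none past the threshold in the 9 libraries. Without the 3 libraries they were at 1.14, 0.65, 0.29, 0.39, -0.44 and -0.40.

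Some genes had another sign or size. Trib3 was higher in Cebpg knockout cells untreated (0.30) and at -0.38 with halofuginone (adjusted p = 0.361, edgeR; -0.36 without the 3 libraries). The change of its difference was -0.71 with an adjusted p of 0.262 from edgeR, so it did not pass. Snhg12 was at -0.18 and Zfas1 at -0.11 with halofuginone, against -1.14 and -0.9995 untreated, and their changes did not pass either (adjusted p = 0.241 and 0.621, edgeR). The fatty acid synthesis list had a median of -0.0031 with halofuginone against 0.26 untreated, while the cell cycle list had 0.23 against 0.26 and the cytosolic synthetases 0.24 against 0.18. Over all genes, the interaction of genotype and halofuginone called 2 genes (0.0136%), Scd2 with a fall of the difference and the predicted gene Gm17767 with a rise (0.00681% each), and 990 at an unadjusted p under 0.05.

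**Figure D5:**
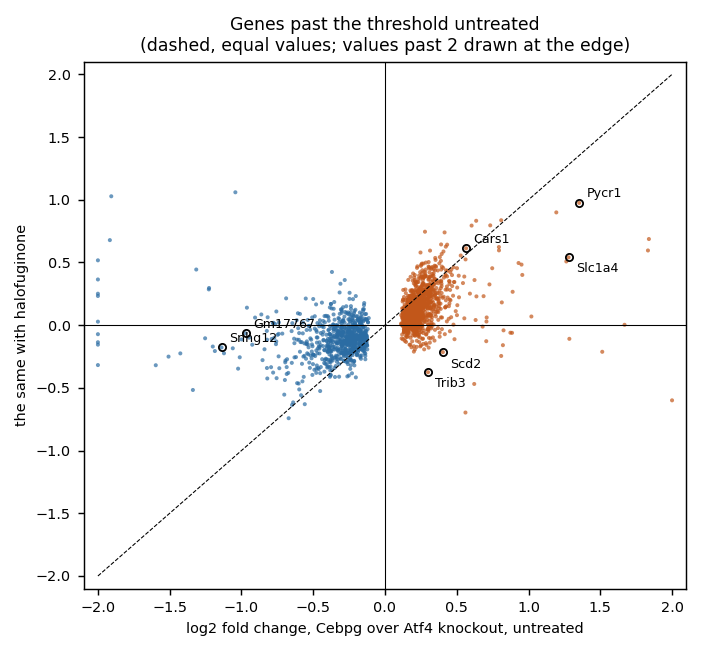
Log2 fold change of Cebpg over Atf4 knockout untreated (x axis) and with halofuginone (y axis) for the genes past the threshold untreated, Cacna1i left out, with a dashed line at equal values. Most points lie in the quadrants of equal sign (1496 of 1804 with Cacna1i), nearer to 0 on the y axis, and Scd2 and Trib3 lie below 0 with halofuginone.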

How the data were processed

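Poly-A RNA was sequenced in 18 libraries, per the labels' protocols from directional libraries made with dUTP. The submitters' processing notes name FastQC, MultiQC, Trimmomatic, STAR, HTSeq and edgeR with the mouse build GRCm39; the sources used here give no versions, no settings and no strand setting. The deposited values are raw counts of reads for each gene, per the file headers, and all are whole numbers. The table holds 14695 genes, all kept by edgeR's filterByExpr at a minimum count of 10; 431 of 449 blank names were filled by identifier.

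Counts were fitted with edgeR 4.0.16 in R 4.3.3 (TMM factors, robust quasi-likelihood, 1 term per group) on the 9 untreated libraries, on the 9 halofuginone libraries and, for the interaction, on all 18. P-values were adjusted by Benjamini-Hochberg over all genes, with a threshold of 0.05. At this depth the median standard error of a log2 fold change was 0.10 over all genes. The fits were tested on simulated data. Alternatives were DESeq2 1.42.0, other scaling factors, a filter of 5 CPM in 3 libraries, a replicate block, other sets of libraries and leaving out each library. Replicate numbers did not pair the untreated libraries (correlations of same-numbered deviations 0.06, -0.0052 and -0.054) and, by a minimum of 0.1, paired those with halofuginone (0.25, 0.25 and 0.53). With halofuginone, number 1 still correlated better with another number (0.36).

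Named genes are Atf4 and Cebpg, the 10 highest and 10 lowest fold changes among called genes that reach 5 CPM in a knockout group, with no overlap of libraries and no predicted name, up to 3 members of smallest p from each of 24 lists, and the neighbours of both targets. Some genes named by this rule are not reported here. Other genes were named after their values were seen. The 30 lists held 595 members, 524 of them measured. The members and lists were chosen with earlier results of these data known. Promoter sequences and gene order are RefSeq's for GRCm38.p6.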

Additional observations from a re-analysis of the deposited data

Results flagged for a closer look

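Of 14695 genes, 2 had a difference between the knockouts that itself differed between culture without and with halofuginone (edgeR interaction, Benjamini-Hochberg adjustment). Scd2, a fatty acid desaturase gene, was 0.40 higher in Cebpg than in Atf4 knockout cells untreated and at -0.21 with halofuginone, a change of -0.65 ± 0.10 (SE, adjusted p = 0.0211). With halofuginone it counted 324, 319.8 and 347 CPM in Cebpg knockout and 374, 365 and 425 CPM in Atf4 knockout libraries, so the order of the group means was turned. The call on Scd2 was lost without any 1 of the Atf4 knockout untreated libraries, without Cebpg knockout untreated library 2 or 3, and without Cebpg knockout halofuginone library 1. Gm17767, a predicted gene, was -0.97 untreated and -0.06 with halofuginone, a change of 0.87 ± 0.10 (SE, adjusted p = 0.000733). Untreated it counted 47.8, 50.5 and 48.6 CPM in Cebpg knockout, 93.7, 97.4 and 93.9 CPM in Atf4 knockout and 25.2, 30.3 and 29.2 CPM in Rosa26 libraries, and with halofuginone 279, 274 and 297 CPM in Cebpg knockout and 291, 284 and 324 CPM in Atf4 knockout libraries.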

How the results depend on the processing

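The sign of every one of the 1804 genes that differed between the untreated knockouts was kept under each alternative that fitted the gene. The count of 1804 was 1848 with RLE factors, 1776 with upper-quartile factors, 1627 with DESeq2, 1901 with a 5 CPM filter, 1716 with only the 6 libraries compared and 1887 without genes of unconfirmed transcripts (class TEC) and Malat1, an alternative added after seeing the data. With all 18 libraries in 1 fit it was 488 (295 higher, 193 lower). Without single libraries it ran from 1243 to 1702, and the count of lower genes from 466 to 640: 466 without Atf4 knockout library 2 and 510 without Cebpg knockout library 3. With a replicate block it was 2246, or 2465 in the 6 libraries (added after seeing the data), though the numbers do not pair these libraries and 1 of 3 pairs correlated best within its own number.

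With halofuginone, the 2 calls (1 higher, 1 lower) became 4 with upper-quartile factors (3 higher), 137 with DESeq2 (65 higher, 72 lower), 15 with a 5 CPM filter (10 higher, 5 lower), 147 in the fit of 18 libraries (79 higher, 68 lower) and 512 (283 higher, 229 lower) without the 3 libraries that stood apart, chosen after seeing the data because of their distance. With the replicate block there were 0 (0 higher, 0 lower). Without single libraries the count ran from 0 to 2, with 0 to 1 higher and 0 to 1 lower. The interaction's 2 calls became 11 with upper-quartile factors (9 higher, 2 lower), 53 with DESeq2 (18 higher, 35 lower) and 9 with a 5 CPM filter (8 higher), and stayed at 2 with a replicate block. Without single libraries they ran from 1 to 4, with 1 to 2 higher and 0 to 2 lower.

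Of the named genes, none changed sign. In 1281 refits the call was the same, in 47 it was lost and in 4 gained, 22 of the losses in the fit of 18 libraries. The replicate block ended no call of a named gene in the untreated comparison. Among small counts in lists, the 2 higher eIF2alpha genes became 4 without Cebpg knockout library 1 and 1 without Cebpg knockout library 2, the 2 lower serine genes 1 without any single library but Cebpg knockout library 3, the 2 higher p53 targets 1 without Atf4 knockout library 3 or Cebpg knockout library 2, the lower effector gene 2 without Atf4 knockout library 1, and 1 naive gene was higher without Atf4 knockout library 3 or Cebpg knockout library 1. The cause of these changes was not tested. Depth limits the values of genes with few counts: Mgat3, at 0.303 ± 0.0302 CPM in Cebpg knockout cells, had a standard error of 0.72.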

Other observations

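Families of genes chosen after their values were seen add to the lists. Of 37 proteasome subunit genes, 13 were higher in untreated Cebpg knockout than in Atf4 knockout cells and 0 lower, where 7.05% of all genes were higher. Psmd1 and Psmd2, the largest subunits of the regulatory particle, were at 0.27 ± 0.041 and 0.23 ± 0.038 (log2 ± SE), with 194 ± 1.503 against 159.5 ± 5.51 CPM for Psmd1 and 241 ± 6.36 CPM in Rosa26 cells. The family median was 0.11 between the knockouts, and over Rosa26 it was -0.39 in Atf4 knockout and -0.26 in Cebpg knockout cells. Of 76 mitochondrial ribosomal protein genes, 3 were higher and 1 lower, with a median of 0.0024. Of 87 genes for cytosolic ribosomal proteins, whose reads may be shared with pseudogenes, 0 were higher and 6 lower, with a median of -0.09. Of 52 replication-dependent histone genes, whose reads may be shared among copies, 4 were higher and 0 lower. Over all genes 7.05% were higher and 5.23% lower. The 4 higher histone genes and 6 lower cytosolic ribosomal protein genes are near these shares, and both mitochondrial ribosomal protein counts are below them.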
